A study of Glycine max with 12 samples.

Results

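The response of wild-type soybean (Glycine max) roots to aluminium was measured by RNA-seq in 6 libraries of a series of 12. They were chosen by their labels: 3 libraries came from roots of the genotype labelled WT at 0 µM AlCl3, called WT_CK, and 3 from WT roots at 50 µM AlCl3, called WT_Al. The other 6 libraries come from the genotype labelled OX under the same 2 treatments (OX_CK and OX_Al) and are used here to set the spread between libraries and to show where WT differs. What OX means, the cultivar of WT, the age of the plants and the length of the treatment are not in the labels. Nor do the labels state that the libraries of 1 group were made from different plants, so the p-values reflect the scatter of these libraries, some of which may be technical.

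Aluminium is released as a toxic ion in acid soils and first stops the growth of root tips. Plants are known to answer with efflux of organic acids such as malate and citrate, which bind the ion outside the root, with transporters that move it into vacuoles, and with changes of the cell wall. Much of this is switched by transcription factors, among which STOP1 of Arabidopsis is the best known. The deposited table gives identifiers without names, and 0 of its identifiers matched the reference table of 59048 soybean genes. No gene below can thus be given a name or a role, no marker of root tissue could be looked up, and the response is described by groups of genes and a few identifiers.

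Library totals of WT ran from 16699259 to 18048712 counts. A WT_CK library had 41049 to 41500 genes with a value above 0 before rounding, and a WT_Al library 41684 to 42125. The ranges did not overlap, and the exact permutation p was 0.1, the smallest that 3 against 3 libraries allow. On the first principal component of the 6 WT libraries, with 77.3% of the variance, the WT_CK libraries lay at -141, -126 and -100.1 and the WT_Al libraries at 143, 125 and 99.0. Replicate 3 of each group thus lay nearest to the other group. On the second component, with 12.8% of the variance, both replicate 3 libraries were below 0, at -87.2 and -44.1, and the other 4 were above it.

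Al raised 8007 genes and lowered 5901 of the 37170 genes tested, which is 21.5% and 15.9%, at an adjusted p under 0.05 (edgeR quasi-likelihood test, two-sided, Benjamini-Hochberg over all genes tested). The rises reached much further than the falls. Among the raised genes, 1843 changed by a log2 fold change of 3 or more, which is 8-fold, against 191 of the lowered genes, and 717 against 24 changed by 5 or more. Where a group had no count, the fitted fold depends on the method, and with such genes set at the bound that 3 counts over its libraries give, the numbers were 1798 and 191 at 3 or more and 586 and 19 at 5 or more. The middle of the raised genes, from the 25th to the 75th percentile, spanned log2 fold changes of 0.79 to 2.85, and that of the lowered genes -1.36 to -0.66. A fall was thus mostly a partial one: 2562 of the 5901 lowered genes changed by a log2 fold change of 1 or more, against 5285 of the raised.

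All 3 WT_Al libraries lay above all 3 WT_CK libraries for 7840 of the raised genes, where 25.8% of all tested genes showed that order. They lay below for 5557 of the lowered genes, where 21.3% of all tested genes did. Of the 23262 genes not called, 14671 (63.1%) had a 95% interval of the log2 fold change inside -1 to 1, by an approximate standard error. For the other 8591 a change of that size could not be told from none.

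The numbers in each direction depend on how the libraries are scaled. With TMM scaling 57.6% of the calls were raised, and with library totals alone 41.1%, with 6525 genes raised and 9349 lowered. That scaling moved the median log2 fold change of all tested genes by -0.18, from -0.04 to -0.22. The long rises held under it, with 1697 genes raised and 247 lowered at a log2 fold change of 3 or more. Leaving out WT_Al replicate 1 left 3779 lowered genes, and leaving out WT_Al replicate 3 gave 351 lowered genes with a log2 fold change of -3 or less.

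**Figure D1:**
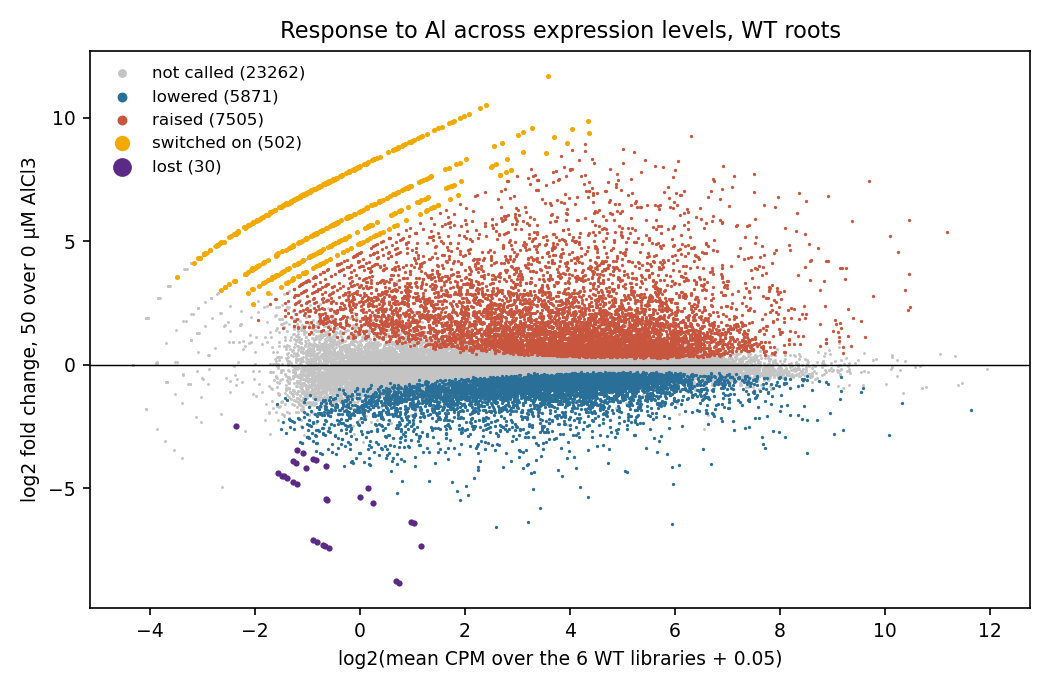
Each point is 1 of the 37170 tested genes, with the log2 of its mean CPM (counts scaled to library size) over the 6 WT libraries plus 0.05 on the x axis and the fitted log2 fold change of WT_Al over WT_CK on the y axis. Red and blue points were raised and lowered, yellow points (502) had at most 3 counts over WT_CK, purple points (30) at most 3 over WT_Al. The rises reach further from 0 than the falls at all levels, and the yellow bands are genes that share the same few counts.

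Genes were split by their mean CPM over all 6 WT libraries, a level that weighs both treatments alike but moves with the change itself. Under 1 CPM, Al raised 677 of 3419 genes (19.8%) and lowered 267 (7.81%). From 1 to 10 CPM it raised 2462 and lowered 2394 of 14104, which is 17.5% and 17.0%, so the directions were close to even there. From 10 to 100 CPM, the level with most genes, it raised 4411 (24.5%) and lowered 3042 (16.9%) of 17987. From 100 to 1000 CPM it raised 449 (27.5%) and lowered 195 (11.96%) of 1630. Of the 30 genes at 1000 CPM or more, 8 rose and 3 fell, or 5 fell with the replicate number as a block.

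The median rise was a log2 fold change of 3.76 under 1 CPM (3.30 with lower bounds), 1.98 from 1 to 10, 1.03 from 10 to 100, 1.44 from 100 to 1000 and 4.11 for the 8 genes at 1000 CPM or more. Of the genes at 1000 CPM or more in WT_CK, 0 were raised, so those 8 reached that level through their WT_Al values. How far the filter on low counts sets the value under 1 CPM was not tested. Of the 677 raised genes there, 343 had at most 3 counts over WT_CK and passed it through libraries where they were high. The median of the other 334 was 2.52, and a filter at 1 CPM in at least 3 libraries left 410 raised genes. The median fall was -2.04, -1.08, -0.76, -0.82 and -1.81 in the same order. The precision differs between levels and goes with what could be called: the median standard error was 0.60 under 1 CPM and 0.17 from 10 to 100 CPM, and the smallest rise called was 1.02 and 0.27. With library totals alone more genes fell than rose from 1 to 10 CPM (3663 against 2126) and from 10 to 100 CPM (4962 against 3374), while rises stayed the more frequent under 1 CPM (624 against 387) and from 100 to 1000 CPM (393 against 332). The lowered genes became 170 under 1 CPM without WT_CK replicate 2, 1529, 1458 and 1580 from 1 to 10 CPM without WT_CK replicate 2, WT_Al replicate 1 and WT_Al replicate 2, 1996 from 10 to 100 CPM without WT_Al replicate 1, 325 from 100 to 1000 CPM without WT_CK replicate 3, and 6 at 1000 CPM or more without WT_Al replicate 3.

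**Figure D2:**
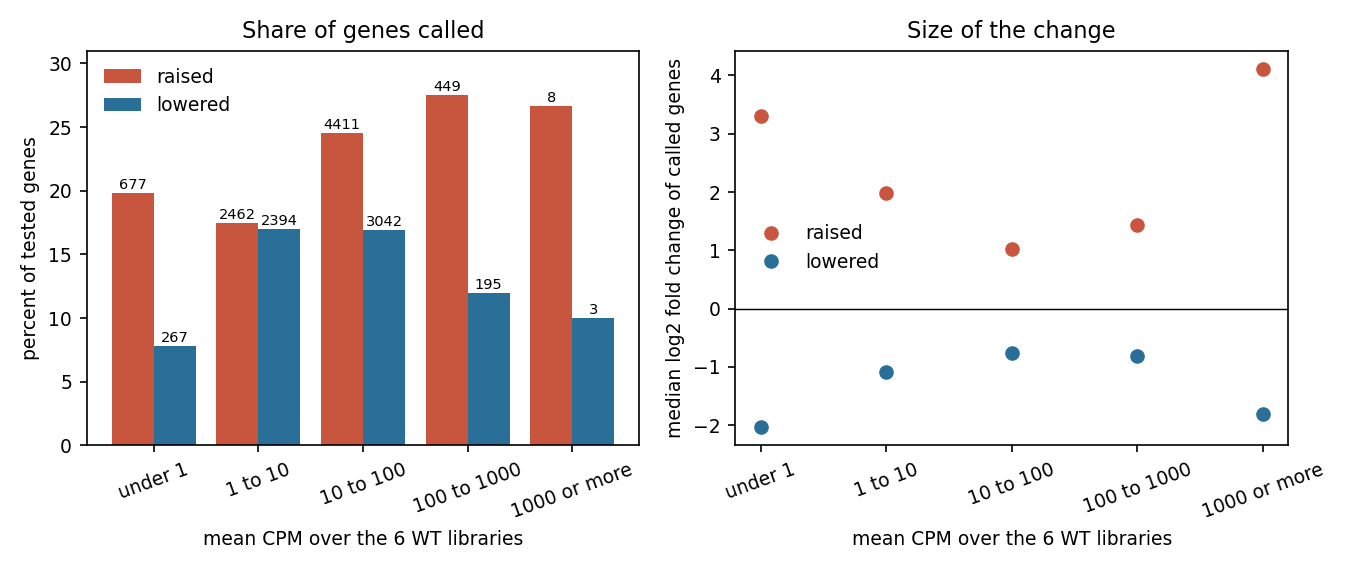
The left panel gives the percent of tested genes raised (red) and lowered (blue) by Al at each level of mean CPM over the 6 WT libraries, with the number of genes above each bar. The right panel gives the median log2 fold change of those genes, with genes without a count in 1 group at their lower bound. Rises outnumber falls at each level under TMM scaling with all libraries, by 2462 to 2394 at the closest. Without WT_CK replicate 3 that closest level had 2700 rises and 2772 falls. The median rise is lowest from 10 to 100 CPM. That under 1 CPM includes 343 genes near 0 in WT_CK that passed the filter through other libraries where they were high. The 8 raised genes at 1000 CPM or more were all below that level in WT_CK.

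Al switched on 502 genes, 1.35% of those tested and 6.27% of the raised genes. The term stands for a raised gene with at most 3 counts over the 3 WT_CK libraries, and 205 of the 502 had no count there. Where the 502 genes were counted follows in large part from this choice, made on the same libraries. Of them, 501, 502 and 499 had a count in WT_Al replicates 1, 2 and 3, against 101, 130 and 168 in the WT_CK libraries. Most stayed at low levels. Their mean in WT_Al ran from 0.0777 to 40.8 CPM with a median of 1.21, and 290 reached 1 CPM, 51 reached 5 CPM and 23 reached 10 CPM. A gene near 0 in WT_CK could pass the filter on low counts only through other libraries where it was higher, of WT_Al or OX. Of the 613 tested genes with at most 3 counts over WT_CK, 502 were thus called raised. Of the 613, 60 had at most 3 counts over WT_Al too. Over all 56877 rows without any filter, 457 genes had no count in WT_CK and a count in every WT_Al library, and 135 had the reverse. The number of switched-on genes was 780 without WT_CK replicate 3, where 3 counts are spread over fewer libraries, 754 without the filter and 291 when the WT libraries were fitted alone.

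Loci without a Glyma identifier, which the table numbers with the prefix MSTRG, made up 22.5% of the switched-on genes. Of the 641 such loci tested, 113 (17.6%) were switched on, against 389 of 36529 Glyma genes (1.06%). The contrast goes with how many near-silent members passed the filter: 129 of the loci and 484 of the Glyma genes had at most 3 counts over WT_CK, and 87.6% and 80.4% of these were switched on. The loci were also lower in level, with 34.5% under 1 CPM against 8.75% of the Glyma genes, and how the loci were defined is not given in the sources used here. Of the 113 loci, 109 were also raised by Al in OX, and of the 389 switched-on Glyma genes 344. Among all tested genes, Al raised 21.2% in OX. Both sets passed a filter over all 12 libraries, OX_Al among them, through libraries where they were high, so these counts are a description.

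Al took 30 genes down to 3 counts or fewer over the 3 WT_Al libraries, 0.0807% of those tested and 0.508% of the lowered genes, and 7 of these had no count left. All 30 were minor transcripts before, at 0.253 to 4.36 CPM in WT_CK with a median of 1.01. The 30 were chosen on the same libraries, so where they were counted is a description. Each of the 30 had a count in WT_CK replicates 1 and 2 and 29 had one in replicate 3, while 7, 9 and 17 had one in the WT_Al libraries. Loss of a transcript was therefore rare beside partial falls. The number rests on the libraries used: it was 47 without WT_CK replicate 3, 76, 85 and 134 without WT_Al replicates 1, 2 and 3, which again spreads 3 counts over fewer libraries, and 134 without the filter on low counts. Fewer cells that hold a transcript and less of it per cell cannot be told apart in RNA from roots, for these and all other genes.

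Setting the level in WT_CK against that in WT_Al shows how far genes moved. Genes with at most 3 counts over a group's 3 libraries are a level of their own, the lowest. Of the raised genes, 3947 (49.3%) stayed within their level, 4060 climbed at least 1 level, 687 at least 2 and 32 at least 3. Of the lowered genes, 3869 (65.6%) stayed, 2032 dropped at least 1 level, 32 at least 2 and 0 at least 3. The 687 include 267 switched-on genes that reached 1 to 10 CPM and 23 that reached 10 to 100 CPM. The same 23 are among the raised genes that climbed at least 3 levels. These genes passed the filter through libraries where they were high. The lowered genes that dropped at least 2 levels include 15 that fell from 1 to 10 CPM to the lowest level. From under 10 CPM without Al, 120 raised genes reached 100 CPM or more, against 5 genes lowered from 100 CPM or more to under 10. The top of the range was refilled as well: 19 raised genes reached 1000 CPM or more from below and 5 lowered genes left that level, and the number of genes at 1000 CPM or more went from 24 to 37.

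**Figure D3:**
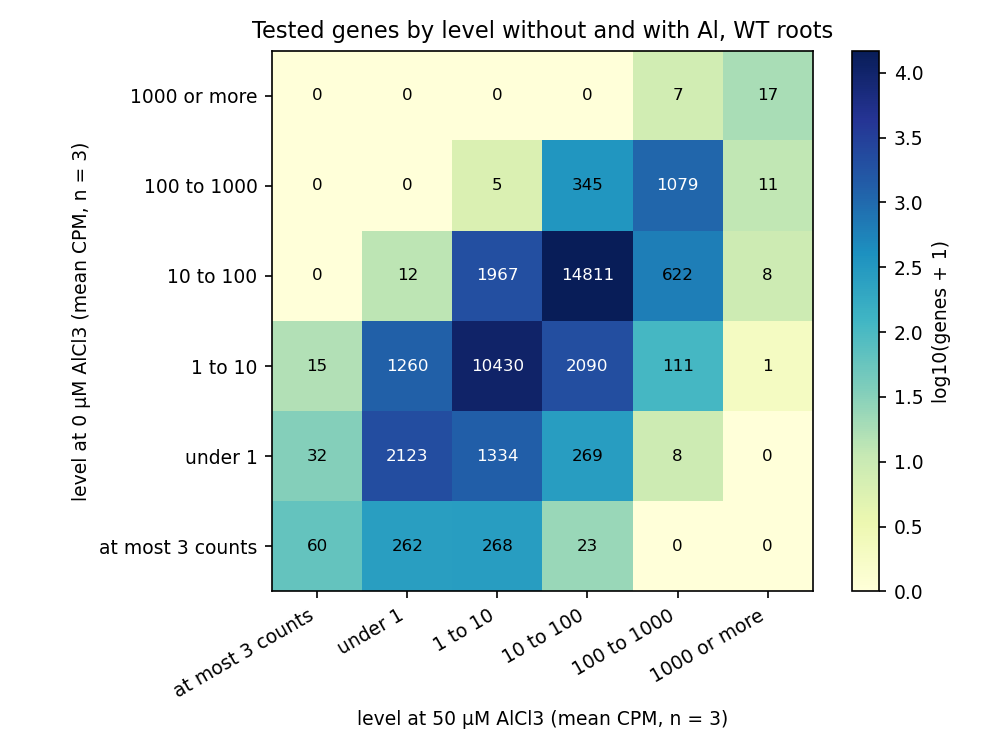
The grid counts the 37170 tested genes by mean CPM at 0 µM AlCl3 (y axis) and at 50 µM (x axis), with the lowest class for genes with at most 3 counts over a group's 3 libraries, and the shade gives log10 of the number plus 1. Genes to the right of the diagonal have a higher level with Al. The cells more than 1 level right of the diagonal hold more genes than those left of it, such as 269 against 12 between under 1 and 10 to 100 CPM.

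The shift changed what the RNA pool was made of. The raised genes held 13.1%, 13.9% and 15.6% of the counts in WT_CK replicates 1, 2 and 3 and 39.2%, 37.0% and 33.6% in WT_Al. The lowered genes went from 19.5%, 20.8% and 20.6% to 7.96%, 8.88% and 10.3%. With library totals alone the genes then lowered held 31.4% of WT_CK and 16.5% of WT_Al counts, and without WT_CK replicate 2 or WT_Al replicate 2 they held 5.99% or 5.92% of WT_Al counts, since other numbers of genes were called. The genes not called went from 65.4% ± 1.86 (SD, n = 3) to 54.2% ± 1.60 of the counts, so their part of the pool was smaller with Al too. The switched-on genes added little to it, with 0.00101% ± 0.000277 in WT_CK and 0.121% ± 0.0117 in WT_Al. These genes were called on the same libraries, so their shares in WT are a description. Replicate 3 stood apart in the same way as above: for 4303 of the 8007 raised genes WT_CK replicate 3 was the highest of the WT_CK libraries, and for 5332 WT_Al replicate 3 was the lowest of the WT_Al libraries. Without both replicate 3 libraries, a check added after the data were seen, the genes then raised held 40.3% of the WT_Al counts.

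The gain was spread over many genes. The 10 raised genes with the largest gain in mean CPM made up 8.89% of the summed gain, the top 100 made up 27.1% and 472 genes made up 50% of it. For the lowered genes the top 10 made up 11.7% and the top 100 made up 30.6% of the summed loss. Genes from 10 to 100 CPM carried 48.9% of the gain and those from 100 to 1000 CPM 38.2%, while the switched-on genes carried 0.498%. The 10 most abundant genes of a library held 3.08% to 3.43% of the counts in WT_CK and 2.69% to 2.95% in WT_Al, without overlap. The 100 most abundant genes held 10.3% ± 0.336 of the counts in WT_CK and 10.5% ± 0.436 in WT_Al, a difference within the spread between libraries.

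The OX libraries were no side of the WT contrast, though they entered the filter and the estimate of the spread, and with the WT libraries fitted alone 6643 genes were raised and 4379 lowered. The genes raised in WT held 16.6%, 20.5% and 20.3% of the counts in OX_CK and 36.5%, 39.8% and 40.5% in OX_Al. The genes lowered in WT held 16.4%, 14.5% and 16.1% in OX_CK and 9.15%, 8.43% and 7.91% in OX_Al. The groups did not overlap for either, and the exact two-sided permutation p was 0.1 for both, the smallest that 3 against 3 allow. Without Al, the raised genes thus took a larger part of each OX library than of each WT library, where the WT values are those on which the genes were called.

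**Figure D4:**
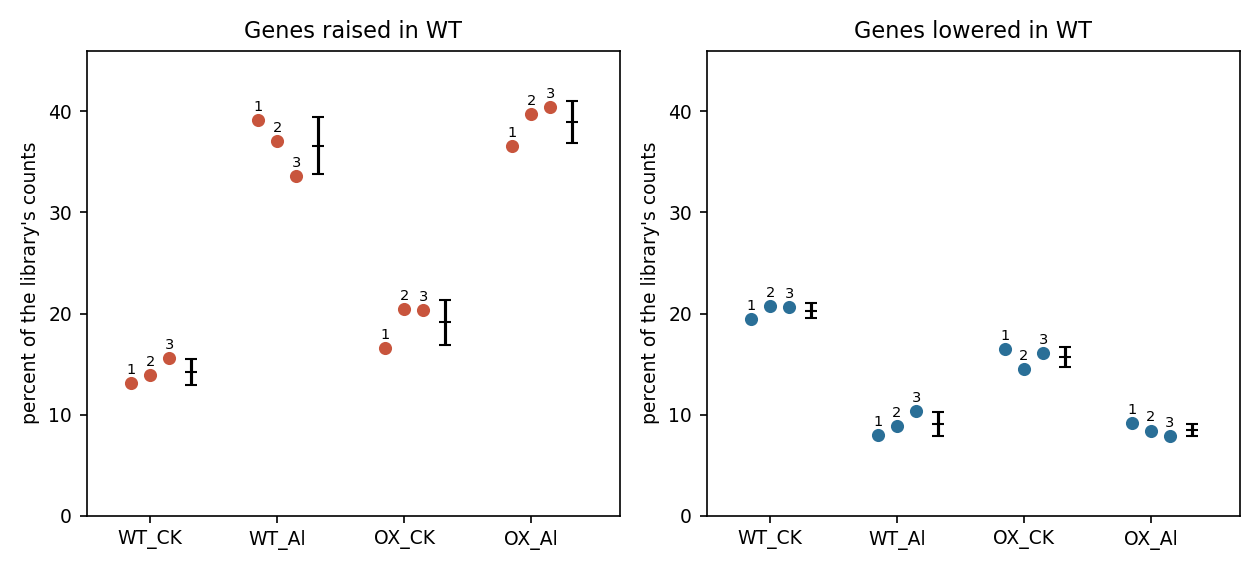
Points give the percent of a library's counts held by the 8007 genes raised (left) and the 5901 genes lowered (right) by Al in WT, numbered by replicate, with the mean and SD of the 3 libraries as a bar. The raised genes hold 13.1% to 15.6% in WT_CK and 33.6% to 39.2% in WT_Al, and OX_CK lies between at 16.6% to 20.5%.

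Glyma.15G264300 had the largest gain in mean CPM. It stood at 58.8, 95.6 and 173 CPM in WT_CK and at 5355, 4501 and 3675 CPM in WT_Al. Every WT_Al library was far above every WT_CK library, which gave a log2 fold change of 5.37 with an SE of 0.46 (adjusted p = 3.79e-06). It was at 4246 ± 1515 CPM (SD, n = 3) in OX_CK and 9549 ± 965 in OX_Al, and its response differed between the lines (adjusted p = 0.00352). Glyma.06G053000 stands for the typical rise of a gene from 10 to 100 CPM. It had 9.92, 10.5 and 17.3 CPM in WT_CK and 28.6, 25.4 and 23.1 CPM in WT_Al, without overlap, a log2 fold change of 1.03 ± 0.24 (adjusted p = 0.00468). In OX it stood at 27.3 ± 7.36 CPM without Al and 27.4 ± 1.92 with it, and the difference of the response was not called (log2 difference -1.02 ± 0.33, adjusted p = 0.184). Values were not whole in 11 of the 12 libraries for Glyma.15G264300 and in 6 for Glyma.06G053000. Reads of near-identical gene copies may have been split there.

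Glyma.12G217400 had the largest loss in mean CPM. It went from 3818, 5546 and 5620 CPM in WT_CK to 731, 1382 and 2167 in WT_Al, or by -1.81 ± 0.42 as log2 fold change with SE (adjusted p = 0.00552), and remained an abundant transcript with Al. Its values were not whole in all 12 libraries. Glyma.13G049400 stands for the typical fall of a gene from 10 to 100 CPM. It had 18.5, 14.4 and 14.0 CPM in WT_CK and 8.37, 9.08 and 10.3 CPM in WT_Al, without overlap (log2 fold change -0.76 ± 0.19, adjusted p = 0.00729). In OX both genes fell too, with log2 fold changes of -1.75 ± 0.42 and -0.95 ± 0.19 (adjusted p = 0.00718 and 0.00214).

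The most abundant switched-on and lost genes were picked out after their values were seen. Glyma.10G008600 had 0.0548, 0.111 and 0 CPM in WT_CK, 3 counts in all, and 52.0, 41.9 and 28.4 CPM in WT_Al. The counts gave a ratio of 746, for which the counting interval ran from 255 to 3620 (adjusted p = 2.18e-06). In OX_CK it was already counted, at 2.29, 6.94 and 1.51 CPM, and it reached 99.9 ± 15.9 CPM (SD, n = 3) in OX_Al. Glyma.05G057400 had 3.24, 7.10 and 2.73 CPM in WT_CK and 0, 0 and 0.0554 CPM in WT_Al, where it had 1 count. The ratio of WT_CK to WT_Al was 219, for which the counting interval ran from 38.9 to 8685 (adjusted p = 9.64e-05). Its OX_CK level was 0.689 ± 0.565 CPM, and its value was not whole in 1 library.

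**Figure D5:**
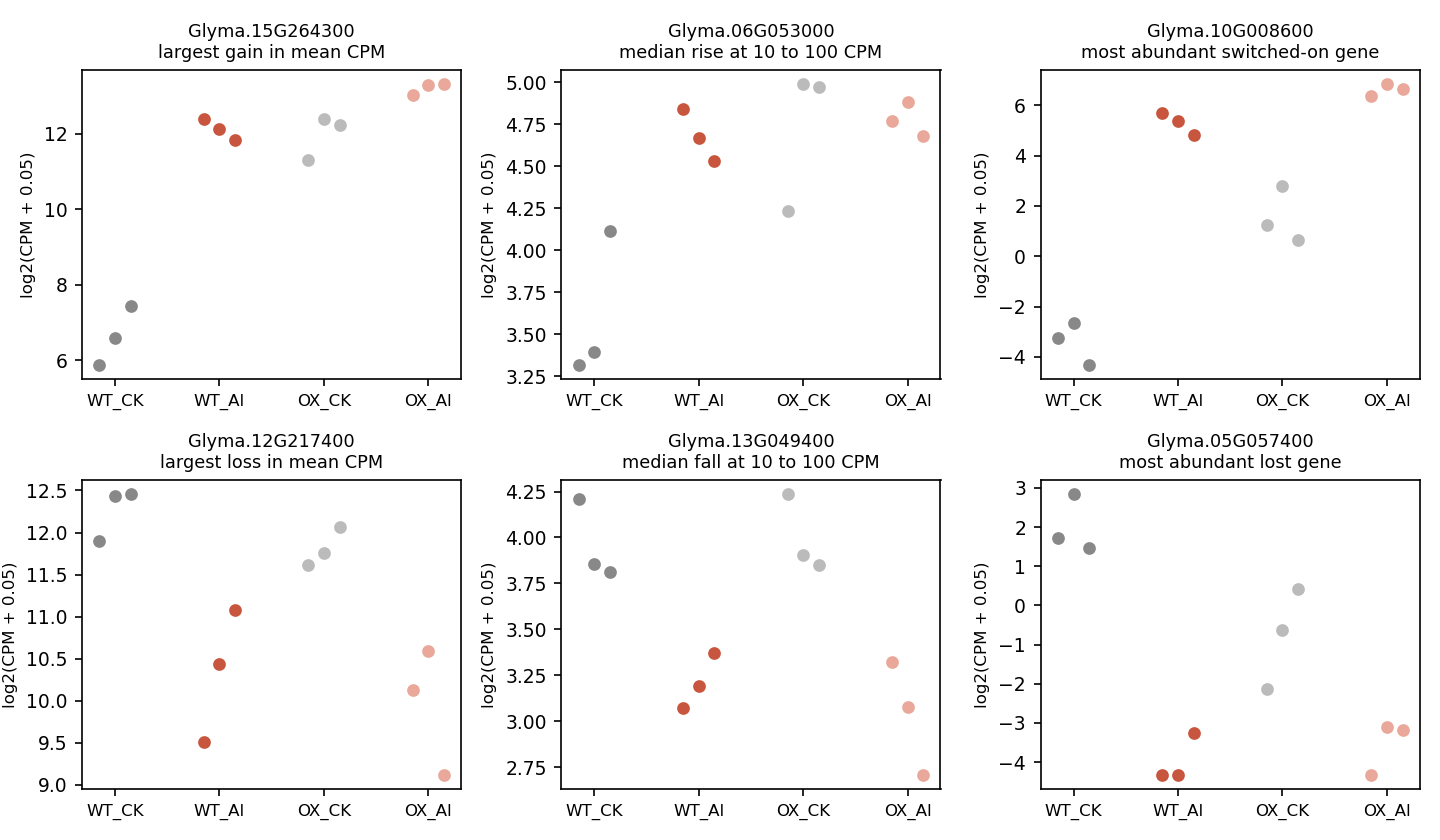
Each panel gives 1 gene as log2 of CPM plus 0.05 in all 12 libraries, with replicates 1 to 3 from left to right in each group and a y axis of its own. In each panel the 3 WT_Al points lie on 1 side of the 3 WT_CK points. Glyma.15G264300 and Glyma.06G053000 are as high in OX_CK as in WT_Al for some libraries, with OX_CK means of 4246 and 27.3 CPM.

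The share of the WT calls that were made again in OX is given by direction and level, with no test between them. OX shares no library with WT, though both are in 1 fit, and there Al raised 21.2% and lowered 15.2% of all tested genes. Of the switched-on genes 453 of 502 (90.2%) were raised in OX, and of the other raised genes 5506 of 7505 (73.4%). The switched-on genes passed a filter over all 12 libraries, OX_Al among them, through libraries where they were high, so the 90.2% is a description and is not to be set against the 73.4%. Of the lowered genes other than the lost, 3389 of 5871 (57.7%) were lowered in OX, and of the lost genes 17 of 30 (56.7%). For raised genes the share was 76.5% under 1 CPM, 71.8% from 1 to 10, 75.7% from 10 to 100 and 73.3% from 100 to 1000. For lowered genes it was 27.3%, 50.9%, 65.2% and 66.2% at the same levels. Of all tested genes, OX lowered 5.001% under 1 CPM, 14.8% from 1 to 10, 17.3% from 10 to 100 and 17.5% from 100 to 1000. Al raised 25.2%, 17.2%, 23.6% and 21.6% of all tested genes in OX at these levels. The 677 raised genes under 1 CPM include 343 switched-on ones, so their 76.5% is a description too. The 8 raised and the 3 lowered genes at 1000 CPM or more were all called in OX.

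The test of the difference between the lines called 1.63% of all tested genes, 0.88% with a higher and 0.748% with a lower response in OX. It called 10 of the 502 switched-on genes, each with a lower response in OX, and 0 of the 30 lost ones. Of the other raised genes it called 264 with a lower and 51 with a higher response in OX, and of the lowered genes 106, each with a higher value in OX, which means a smaller fall or a rise. The difference uses the WT libraries on which these genes were called, so the counts are not independent. Many switched-on genes were not silent in OX without Al. Of the 502, 266 had at most 3 counts over the 3 OX_CK libraries, 238, 289 and 271 had a count in OX_CK replicates 1, 2 and 3, and 18 had a mean of 1 CPM or more there, up to 6.91 CPM.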

How the data were processed

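The values are estimated counts for each gene in 1 deposited table, without scaling of the libraries, per the file headers. Decimals were found in 13.2% of the values (tolerance 1e-06) and in at least 1 library for 43.4% of the tested genes. HTSeq 0.6.0, HISAT2 2.1.0, Bowtie2 2.2.3, TopHat2 and CASAVA were used in roles not stated, per the submitters' processing notes. Build, annotation and strand setting are not given there or in the labels, so reads of overlapping or antisense genes cannot be separated. The 8 rows of stray text were left out.

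Values were rounded, filtered with filterByExpr (minimum count 10, total 15), which kept 37170 of 56877 rows and 99.9% of the counts, and scaled by TMM. edgeR 4.0.16 (R 4.3.3) fitted a mean per group to all 12 libraries. Genes were tested two-sided by the quasi-likelihood F-test (robust) with Benjamini-Hochberg adjustment over all genes, and gives all adjusted p-values unless another test is named. The standard error is approximate: the absolute log2 fold change divided by the root of F. CPM uses the scaled library sizes. Shares of counts use unscaled totals. The script was tested on simulated data. Depth per tested gene was 194 counts in a library at the median. Counting intervals are exact (95%) and cover counting error only.

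Same-numbered libraries of WT_CK and WT_Al deviated together, with correlations of 0.13, 0.22 and 0.36 across genes, each above 0.1, a pairing that rests on the data alone. The main results have no block, and the fit with the replicate number as a block is an alternative, as the permutation tests also leave the pairing out. WT_CK replicate 1 matched WT_Al replicate 2 better, at 0.27. No 2 replicates agreed within sampling noise. The rule for named genes without descriptions took the largest rise and fall in mean CPM and, among genes of 10 to 100 CPM without overlap, the raised and lowered gene nearest the median change. Groups, lists and rules were chosen with earlier results of these data known. Gene lists by description could not be built, so their tests were not run. Alternatives changed the scaling, the filter, the test (DESeq2 1.42.0, limma-voom 3.58.1), the libraries, the block, the rounding and the threshold.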

Additional observations from a re-analysis of the deposited data

Results flagged for a closer look

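The response to Al differed between WT and OX for 605 of the 37170 genes by the test of the difference itself. Of these, 325 were raised in WT, 106 were lowered in WT and 174 were not called in WT. Among all tested genes, 21.5% were raised and 15.9% lowered in WT. The difference uses the WT libraries on which the WT calls were made, so the counts are not independent. Of the 6 genes named, Glyma.15G264300 was among the 605 (adjusted p = 0.00352). Its log2 fold change was 5.37 in WT (SE 0.46) and 1.17 in OX (SE 0.39). In OX it already stood at 2533, 5410 and 4795 CPM without Al, and each OX_Al library was above these, at 8440 to 10190 CPM.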

How the results depend on the processing

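With library totals alone, 6525 genes were raised and 9349 lowered (41.1% of calls raised). Lowered genes then numbered 3663 from 1 to 10 CPM, 4962 from 10 to 100, 332 from 100 to 1000 and 5 above. Raised genes then held 10.2% of WT_CK and 31.4% of WT_Al counts, and lowered genes 31.4% and 16.5%. Without the filter, 754 genes were switched on and 134 lost. With at least 1 CPM in 3 libraries, 12 were lost, 410 raised and 129 lowered under 1 CPM, and lowered genes held 19.1% of WT_CK counts. With the WT libraries fitted alone, 291 were switched on and 316 raised under 1 CPM. Raised genes then held 11.5% of WT_CK and 33.1% of WT_Al counts, and lowered genes 15.8% and 6.39%. With the replicate block, 5 genes fell at 1000 CPM or more and lowered genes held 22.5% of WT_CK counts, and no other count moved by over 1.5 times and no call of a named gene ended. At an adjusted p under 0.01, 2932 genes were lowered. Asking for an absolute log2 fold change of at least 1, 5285 were raised and 2562 lowered, which by construction drops Glyma.13G049400. Among genes with whole values, which are fewer, 4451 were raised and 3447 lowered. With no count allowed in the lower group, 205 were switched on and 7 lost. Without both replicate 3 libraries, an alternative chosen after seeing the data, 117 were lost, 317 fell by a log2 fold change of 3 or more, raised genes held 40.3% of WT_Al counts and lowered genes 22.8% of WT_CK counts. Beyond what the settings' own construction gives, the cause of these moves was not tested.

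Leaving out each WT library in turn gave 6524 to 8800 raised and 3779 to 7007 lowered genes, 498 to 780 switched on and 33 to 134 lost, and 175 to 351 with a log2 fold change of -3 or less. Lowered genes ran from 170 to 372 under 1 CPM, 1458 to 2772 from 1 to 10, 1996 to 3535 from 10 to 100, 131 to 325 from 100 to 1000 and 2 to 6 above. Raised genes held 10.8% to 14.7% of WT_CK and 30.8% to 38.7% of WT_Al counts, lowered genes 14.2% to 26.6% and 5.92% to 12.5%. In all 6 of these fits 6000 raised (74.9%), 3069 lowered (52.0%), 446 switched-on (88.8%) and 26 lost genes kept their call. The majority of calls turned from raised to lowered with library totals, in all and from 1 to 10 and from 10 to 100 CPM. From 1 to 10 CPM it also turned without WT_CK replicate 3, with 2700 genes raised and 2772 lowered. No named gene changed direction, and the named genes other than Glyma.13G049400 kept their calls under each alternative in which they were tested. At low counts the depth limits what can be called.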

Other observations

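The chromosome of a gene and its order along it can be read from the Glyma identifiers. Raised genes made up from 19.1% of the tested genes on chromosome 5 to 23.7% on chromosome 13, and lowered genes from 14.4% on chromosome 19 to 17.6% on chromosome 12. Switched-on genes ran from 0.553% on chromosome 17 to 1.75% on chromosome 12. The response was thus spread over all 20 chromosomes.

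Neighbours are given as a description, without a test, and only for genes whose identifier gives a chromosome. The MSTRG loci, switched-on ones among them, are thus left out. A tested gene next to them on the chromosome was raised for 46.6% of the raised genes, 59.2% of the switched-on genes, 35.9% of the genes not called and 33.4% of the lowered genes. A lowered neighbour was found for 35.0% of the lowered genes, 28.6% of the genes not called and 25.8% of the raised genes. Which neighbours are copies of each other cannot be read from the identifiers.

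Genes with a value that was not whole in some library were raised at 21.8% against 21.3% of the others, and lowered at 14.9% against 16.6%. Of them 0.681% were switched on, against 1.86% of the others, and their median level in WT was 21.0 against 6.39 CPM.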
